A study of Mus musculus with 120 samples.

Results

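Neurotransmitter release draws on a small set of proteins that exist as families of related genes, and 8 of these genes are described here across nuclei of the mouse thalamus. They are the complexins Cplx1 and Cplx2, the vesicle SNARE proteins Vamp1 and Vamp2, the synapsins Syn1 and Syn2, and the Munc13 proteins Unc13a and Unc13c. The genes were taken by their symbols from the table of counts and are 8 of its 16538 genes. All 8 passed the filter on low counts, which left 16527 genes for testing. Build mm10 (GENCODE M21) places Cplx1 (ENSMUSG00000033615.9) at chr5:108518554-108550024 on the minus strand and Cplx2 (ENSMUSG00000025867.8) at chr13:54371349-54383917 on the plus strand. The VAMP genes are Vamp1 (ENSMUSG00000030337.16) at chr6:125215551-125245964 on the plus strand and Vamp2 (ENSMUSG00000020894.16) at chr11:69088490-69092384 on the plus strand. The synapsin genes are Syn1 (ENSMUSG00000037217.15) at chrX:20860511-20921004 on the minus strand and Syn2 (ENSMUSG00000009394.13) at chr6:115134902-115282006 on the plus strand. The Munc13 genes are Unc13a (ENSMUSG00000034799.16) at chr8:71624417-71671757 on the minus strand and Unc13c (ENSMUSG00000062151.13) at chr9:73479422-73968966 on the minus strand.

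The data are 120 bulk RNA-seq libraries of projection neurons from 22 thalamic nuclei, each nucleus reached by a tracer injected where its axons end and each library made from 14 to 200 hand-picked fluorescent cells (median 60.5). The 7 nuclei labelled from the striatum (30 libraries) are PVT, IMD, SPA, PF, CL, PCN and CM. Their tracer was rAAV2retro, a virus taken up by axon endings that carried GFP or tdTom. The exception is 3 of these 30 libraries, all from CM, labelled with DiI, a lipophilic dye. The 15 nuclei labelled from the cortex (90 libraries) were traced with DiI: LP and LGd from visual area V1, PO and VB from somatosensory area S1, VA, VM and VL from motor area M1, AD, LD and AV from retrosplenial cortex, RE, IAD and AM from cingulate cortex, VPMpc from insular cortex and MD from orbital cortex. The exception is 1 of these 90 libraries, from AM, traced with AAV. By their usual names these are the paraventricular (PVT), intermediodorsal (IMD), parafascicular (PF), central lateral (CL), paracentral (PCN) and central medial (CM) nuclei, the lateral posterior (LP) and dorsal lateral geniculate (LGd), the posterior (PO) and ventrobasal (VB), the ventral anterior, medial and lateral (VA, VM, VL), the anterodorsal, laterodorsal and anteroventral (AD, LD, AV), the reuniens (RE), interanterodorsal (IAD), anteromedial (AM) and mediodorsal (MD) nuclei; SPA and VPMpc are given as labelled. The mice were wildtype for 119 libraries, and VA replicate 6 came from a mouse of the genotype 33.7-Gad2. No treatment separates the groups. Ages were 55 to 182 days, apart from 7 libraries of AV, LD and VPMpc from animals of 441 to 447 days and 3 libraries with no age given. A group is a nucleus as dissected after labelling, so it holds only neurons that took up the tracer from 1 target, and 13 libraries pooled cells of several animals. Of the 85 animals 44 gave more than 1 library.

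Total counts per library ran from 8159497 to 26444831 (median 15571299.5). Levels are given in CPM, reads scaled to the size of the library (with TMM factors), and as mean ± SD over libraries unless said otherwise. A call is an adjusted p under 0.05 (Benjamini-Hochberg over all tested genes) in edgeR's quasi-likelihood test of a fit that holds all libraries with 1 coefficient per group. Tracer, sex and amplification date partly follow the target: PVT, IMD, SPA, PF, CL and AM were female only, and AD, LD, AV, LP, LGd, PO, VB and MD male only. The cDNA was amplified on 14 dates, numbered here as names only, and 2 of these held both classes of nuclei. The summed level of 3 markers of thalamic projection neurons (Slc17a6, Tcf7l2 and Rbfox3) was 2432 to 4584 CPM in striatum-labelled libraries and 1951 to 7519 CPM in cortex-labelled libraries. The 7 oligodendrocyte markers summed to at most 60.0 CPM in striatum-labelled libraries (median 36.0 CPM) and at most 3838 CPM in cortex-labelled libraries (median 28.3 CPM). The highest sums were in VA replicate 3 (3838 CPM), VB replicate 4 (1823 CPM) and LP replicate 1 (859 CPM). Csf1r of microglia reached 4.21 CPM in striatum-labelled libraries and 47.9 CPM in cortex-labelled libraries. Lists for astrocytes and endothelial cells were not analysed here.

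A synaptic vesicle fuses when the vesicle SNARE, a VAMP or synaptobrevin, zips together with syntaxin 1 and SNAP-25 of the plasma membrane. Munc13 proteins, the products of Unc13 genes, prime the vesicle by opening syntaxin; complexins bind the assembled SNARE complex and both hold it in check and promote fast fusion when calcium enters; synapsins coat vesicles and tether them into a reserve behind the active zone. Relay neurons of the thalamus are known for depressing, high-release terminals on cortical neurons, and thalamic axons in the striatum form another well-known set of excitatory terminals.

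The promoters of the 3 genes whose levels followed each other or ran opposite over the nuclei, Cplx1, Vamp1 and Syn2, are printed as the 250 bases before the RefSeq start (build GRCm38.p6, 5′ to 3′ on the transcribed strand). A set of 4 motifs was searched on both strands and is in capitals where found: a GC box (GGGCGG), the core of a cyclic AMP response element (TGACG), an E-box (CANNTG) and an element of estrogen-related receptors (TNAAGGTCA).
Cplx1 promoter, chr5:108550028-108550277, minus strand: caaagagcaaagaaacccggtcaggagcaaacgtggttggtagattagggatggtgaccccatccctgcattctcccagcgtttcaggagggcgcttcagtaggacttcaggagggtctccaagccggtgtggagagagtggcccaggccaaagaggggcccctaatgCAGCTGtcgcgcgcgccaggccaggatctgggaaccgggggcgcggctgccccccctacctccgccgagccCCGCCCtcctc
Vamp1 promoter, chr6:125215331-125215580, plus strand: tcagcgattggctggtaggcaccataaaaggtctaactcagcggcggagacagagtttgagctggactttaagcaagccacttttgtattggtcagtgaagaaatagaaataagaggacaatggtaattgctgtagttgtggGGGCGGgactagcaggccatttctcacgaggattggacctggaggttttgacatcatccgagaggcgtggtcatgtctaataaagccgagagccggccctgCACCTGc
Syn2 promoter, chr6:115134652-115134901, plus strand: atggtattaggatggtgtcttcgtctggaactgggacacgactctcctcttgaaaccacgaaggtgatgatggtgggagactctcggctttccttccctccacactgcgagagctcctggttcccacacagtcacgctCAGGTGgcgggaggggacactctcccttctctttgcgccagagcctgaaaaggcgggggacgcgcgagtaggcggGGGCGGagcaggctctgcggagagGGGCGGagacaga
The GC box, read as CCGCCC where it lies on the other strand, occurred at 1 place in the Cplx1 window, at 1 in that of Vamp1 and at 2 places in that of Syn2, and it is held by 32.7% of 32841 RefSeq promoter windows of this length. Each of the 3 windows also held 1 E-box, which 66.2% of windows hold. The cyclic AMP core (17.8% of windows) and the estrogen-related receptor element (1.14%) were not found in these letters. CpG dinucleotides numbered 15 in the Cplx1 window, 9 in that of Vamp1 and 16 in that of Syn2. Syn2 has a second start in the RefSeq table, which is not shown, and Vamp2 was not matched there. The Vamp1 window reaches 30 bases past the start that GENCODE M21 gives for the gene.

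Per kilobase of exon, the median over nuclei was 438 CPM for Syn1, 373 for Vamp2, 157 for Cplx1, 38.5 for Syn2, 17.1 for Unc13a, 8.90 for Vamp1, 3.22 for Cplx2 and 2.59 for Unc13c. All 8 genes differed between the 22 nuclei (edgeR F test), where 55.1% of tested genes were called, and they fell into 2 kinds. Vamp2, Syn1 and Unc13a stood at 78.0 CPM or more in every library, and their highest and lowest nucleus differed by 3.07-fold, 3.54-fold and 2.03-fold. The 3.07-fold of Vamp2 sets AD (mean 1971 CPM) against PVT, which shares with IMD an amplification date on which Vamp2 was low in every library; the lowest of the other 20 nuclei was AV, at a mean of 1156 CPM. The other 5 genes spanned 23.1-fold (Vamp1), 32.5-fold (Syn2), 45.2-fold (Cplx1), 496-fold (Cplx2) and 2051-fold (Unc13c), the last against a nucleus with 7 reads in all. Cplx1 had the 5th smallest p of all 16527 genes (adjusted p = 1.51e-42) and Syn2 the 7th (adjusted p = 2.08e-40), while Unc13a had the largest of the 8 (adjusted p = 0.0313). That last call is lost with other size factors (adjusted p = 0.0657), and without AD replicate 1 or CL replicate 3 (adjusted p up to 0.0599). In each gene's order of nuclei, 21 pairs of neighbours can be formed, and their libraries overlapped in all 21 for 6 genes and in 20 for Vamp2 and Syn2. In bulk samples fewer cells that express a gene and less RNA per cell cannot be told apart.

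**Figure D1:**
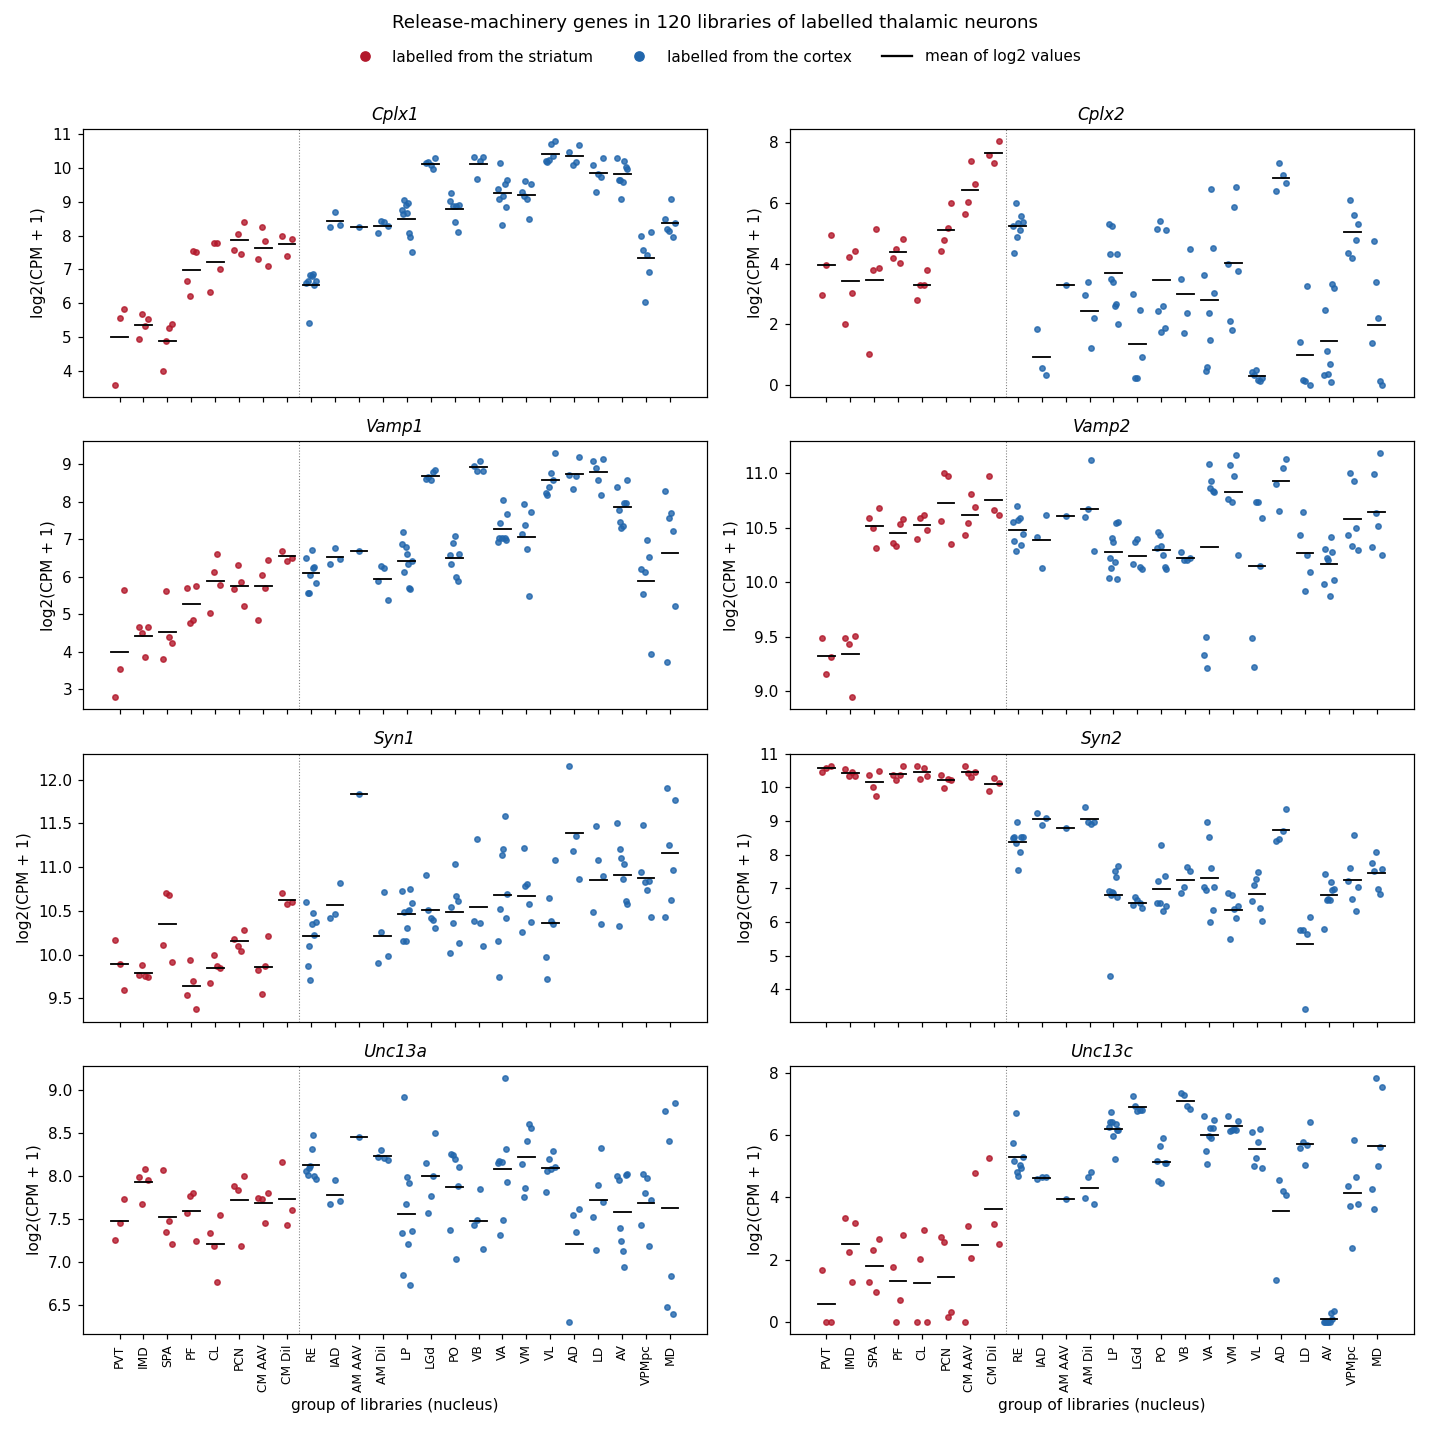
The 8 genes in each of 120 libraries, as log2(CPM + 1), by group of libraries; points are libraries and bars the mean of the log2 values. Syn2 is the gene whose striatum-labelled libraries (left of the dotted line) all lie above the cortex-labelled ones, and Unc13c is near 0 in AV.

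Nuclei labelled from the striatum were higher in Syn2 and lower in Cplx1, Vamp1, Syn1 and Unc13c than nuclei labelled from the cortex, when counts were summed per nucleus and 7 nuclei were set against 15. These 5 of 8 members stand beside 18.4% of 15440 genes called in that comparison, 8.58% higher and 9.8% lower. The median log2 difference of the 8 was -0.46, and that of all genes -0.08. All 7 striatum-labelled nuclei enter by AAV and all 15 cortex-labelled nuclei by DiI, so tracer and target cannot be told apart there. The 1 AAV library of AM did not enter. It held 443 CPM of Syn2, 302 of Cplx1, 103 of Vamp1, 3662 of Syn1 and 14.3 of Unc13c. In this order AM by DiI averaged 540.4, 314, 62.5, 1218 and 19.7 CPM (n = 4). With CM, 1 of the 7, taken from its DiI libraries, the same 5 members were called, beside 16.3% of 15432 genes. The other 6 striatum-labelled nuclei have AAV libraries alone.

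The complexins parted. Cplx1, the complexin best known from fast synapses, stood at 11.02 to 337 CPM (median 133) in the 30 striatum-labelled libraries and at 42.1 to 1768 CPM (median 536) in the 90 cortex-labelled libraries, and the ranges overlapped. Over nuclei its mean was 124 ± 87.0 CPM in striatum-labelled nuclei (SD, n = 7) and 685 ± 437 CPM in cortex-labelled nuclei (n = 15), a log2 fold change of -2.47 ± 0.51 (SE, edgeR adjusted p = 0.0019). Cplx2 had 1.01 to 261 CPM (median 20.4) in striatum-labelled libraries and 0 to 160 CPM (median 6.93) in cortex-labelled libraries, and was not called (log2 0.60 ± 0.74, edgeR adjusted p = 0.605). Its highest levels were in CM, with 189.8, 160.4 and 261 CPM in the 3 DiI libraries and 48.8, 63.9, 165 and 97.3 CPM in the 4 AAV libraries, and in AD.

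Vamp1, the vesicle SNARE that joins Vamp2 in some neurons, followed Cplx1. Striatum-labelled libraries held 5.95 to 103 CPM (median 48.6) and cortex-labelled libraries 12.4 to 623 CPM (median 134). Its mean over nuclei was 41.7 ± 18.2 CPM in striatum-labelled nuclei and 225 ± 165 CPM in cortex-labelled nuclei, a log2 fold change of -2.43 ± 0.47 (edgeR adjusted p = 0.00104). Vamp2, the main synaptobrevin of the forebrain, held 492.9 to 2054 CPM (median 1462) in striatum-labelled libraries and 592 to 2324 CPM (median 1342) in cortex-labelled libraries, and was not called (log2 -0.10 ± 0.16, edgeR adjusted p = 0.72).

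The synapsins went opposite ways. Syn2 stood at 858 to 1598.5 CPM (median 1312) in the 30 striatum-labelled libraries and at 9.58 to 684 CPM (median 131) in the 90 cortex-labelled libraries. Every striatum-labelled library therefore lay above every cortex-labelled one, the DiI libraries of CM included (955, 1241 and 1114 CPM). Of 16527 genes 3 (0.0182%) separate the libraries in this way; the other two are Fras1, which is lower in striatum-labelled libraries, and Igkc, which is higher, both named after their values were seen. Over nuclei, 1.28% of genes separate the classes. Syn2's mean over nuclei was 1393 ± 117 CPM in striatum-labelled nuclei and 222 ± 173 CPM in cortex-labelled nuclei, a log2 fold change of 2.65 ± 0.35 (edgeR adjusted p = 4.76e-05). Timp4, an inhibitor of metalloproteinases whose gene lies inside Syn2 on the other strand and shares 90 bases of exon with it, was also higher (log2 1.29, edgeR adjusted p = 0.0348), with medians of 15.6 CPM in striatum-labelled libraries and 4.63 CPM in cortex-labelled libraries. Its highest level in any library was 92.9 CPM, under the lowest Syn2 level of a striatum-labelled library. Syn1 stood at 662 to 1670.3 CPM (median 958) in striatum-labelled libraries and 836 to 4572 CPM (median 1529) in cortex-labelled libraries, with a log2 fold change of -0.68 ± 0.14 over nuclei (edgeR adjusted p = 0.00169).

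The Munc13 genes differed in spread. Unc13c, known from cerebellar granule cells and scarce in most of the forebrain, held 0 to 37.3 CPM (median 3.06) in striatum-labelled libraries and 0 to 231 CPM (median 41.4) in cortex-labelled libraries. Over nuclei it averaged 3.91 ± 3.17 CPM in striatum-labelled nuclei and 55.1 ± 39.9 CPM in cortex-labelled nuclei, a log2 fold change of -3.81 ± 0.75 (edgeR adjusted p = 0.00119). Among cortex-labelled nuclei AV was an exception, with less Unc13c than any other of the 22. Unc13a, the Munc13 of most excitatory synapses, held 108 to 285 CPM (median 198) in striatum-labelled libraries and 78.0 to 562 CPM (median 247) in cortex-labelled libraries, and was not called (log2 -0.24 ± 0.13, edgeR adjusted p = 0.193).

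On the 2 dates that held both classes, sums of PVT, IMD and CM (by DiI) were set against sums of VA, VL and VM with the date as a block, and 5.95% of 14677 genes were called (2.49% higher, 3.47% lower). The calls of Syn2 (log2 3.16 ± 0.21, edgeR adjusted p = 4.1e-05), Cplx1 (-3.37 ± 0.57, adjusted p = 0.00792), Vamp1 (-2.43 ± 0.54, adjusted p = 0.0277) and Unc13c (-3.07 ± 0.66, adjusted p = 0.0238) were kept there. That of Syn1 was not (log2 -0.14 ± 0.12, edgeR adjusted p = 0.576). Oligodendrocyte markers were lower in striatum-labelled nuclei for 4 of the 7, and their part in these differences was not tested.

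**Figure D2:**
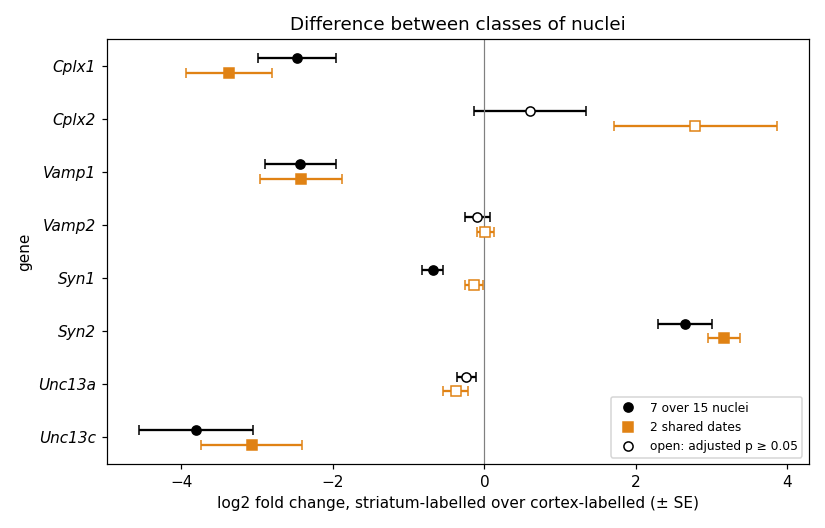
Log2 fold change (x axis) of each gene, striatum-labelled over cortex-labelled, with its SE; circles are 7 over 15 nuclei and squares the 2 shared amplification dates, filled where called. Syn2 lies right of 0 and Cplx1, Vamp1 and Unc13c left of 0 in both, while Syn1 is near 0 on the shared dates.

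Among the 7 striatum-labelled nuclei 3 of the 8 members differed, Cplx1, Vamp1 and Vamp2, where 4.71% of genes were called. Cplx1 was lowest in SPA (14.97, 28.3, 37.3 and 41.0 CPM), PVT (11.02, 46.5 and 56.4 CPM) and IMD (30.0, 50.1, 39.2 and 45.0 CPM). It was highest in PCN, with 191, 265, 175 and 337 CPM (edgeR F test over the 7 nuclei, adjusted p = 2.07e-15). Vamp1 had the same nuclei at its low end, at 24.8 ± 15.8 CPM in SPA (n = 4), 21.9 ± 23.6 CPM in PVT (n = 3) and 21.0 ± 5.10 CPM in IMD (n = 4), against 63.0 ± 27.3 CPM in CL (n = 4), the highest (edgeR F test, adjusted p = 0.0166), but limma voom with the animal as a random block did not call this (adjusted p = 0.221). The same fit called Cplx2 (adjusted p = 0.00255) and Unc13c (adjusted p = 0.0325) among these nuclei, which edgeR did not. Syn2 was not called among them (edgeR adjusted p = 1), with nucleus means from 1165 CPM in SPA to 1513 CPM in PVT.

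Vamp2 was low in PVT (720.1, 571 and 637.5 CPM) and IMD (718, 693, 492.9 and 729.5 CPM), against means of 1405 to 1722 CPM in the other 5 striatum-labelled nuclei (edgeR F test, adjusted p = 5.12e-07). All 7 libraries were amplified on 1 date, and the 5 cortex-labelled libraries of that date were as low, with 645, 724 and 592 CPM in VA and 718 and 598 CPM in VL. The 12 libraries of the date lay between 492.9 and 729.5 CPM and the 108 others between 937 and 2324 CPM. Syn1 averaged 977 ± 193 CPM on that date and 1621 ± 680.1 CPM on the others, with an overlap. Leaving out that date's libraries removes PVT and IMD whole, so that fit cannot separate nucleus from date. Among the other 5 striatum-labelled nuclei Vamp2 was not called (edgeR adjusted p = 1), nor was Vamp1 (adjusted p = 0.3715). Cplx1 alone of the 8 was called among these 5. SPA was amplified on a date of its own, and PF, CL, PCN and CM (by AAV) shared another. Nucleus and date therefore cannot be told apart where PVT, IMD or SPA are set against those nuclei, for Cplx1 as for Vamp2.

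**Figure D3:**
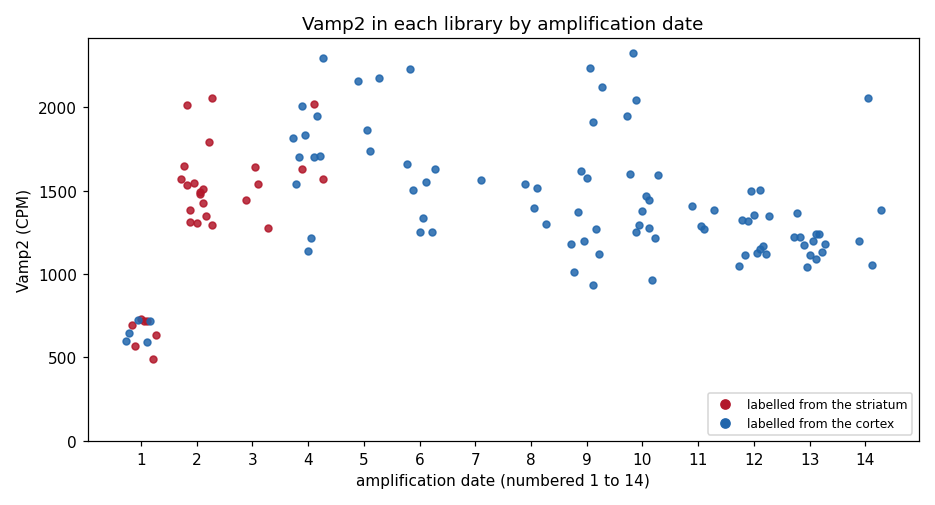
Vamp2 in CPM in each library (points) by amplification date (numbers 1 to 14, given here as names), coloured by class. The 12 libraries of date 1 lie at 492.9 to 729.5 CPM, below every library of the other dates.

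Among the 15 cortex-labelled nuclei 7 of the 8 members differed (53.4% of genes called), all but Unc13a (edgeR adjusted p = 0.0556), which limma voom with the animal as a random block called (adjusted p = 0.0283). Cplx1 was highest in VL at 1374 ± 270.3 CPM (n = 6), AD at 1325 ± 248 CPM (n = 4), VB at 1133 ± 221 CPM (n = 4) and LGd at 1122 ± 97.5 CPM (n = 5), and lowest in RE at 96.1 ± 23.5 CPM (n = 8). Vamp1 was highest in VB, LD, AD, LGd and VL, with means of 484, 452, 436, 415 and 395 CPM, and lowest in AM at 62.5 ± 16.6 CPM (n = 4). Syn2 reached 540.4 ± 96.3 CPM in AM (n = 4) and 540.2 ± 67.0 CPM in IAD (n = 3), and was lowest in LD at 46.6 ± 22.1 CPM (n = 5). Cplx2 ran from 116 ± 32.8 CPM in AD (n = 4) to 0.233 ± 0.126 CPM in VL (n = 6), and Unc13c from 139 ± 24.6 CPM in VB (n = 4) to 0.0679 ± 0.111 CPM in AV (n = 8).

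The next comparisons set nuclei against each other that share a cortical target and a tracer, and so ask how the genes differ within one projection system. Over 11 such pairs Cplx1 was called lower in the first-named nucleus in 6, Vamp1 lower in 4, Cplx2 higher in 5, Vamp2 and Unc13c each higher in 2, and Syn2 higher in 2 and lower in 1. Syn1 and Unc13a were called in none; their smallest adjusted p in edgeR was 0.162 and 0.397, and at most 2 of the pairs had an unadjusted p under 0.05 in either. Pairs within a target share nuclei, so their values are not independent of each other.

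**Figure D4:**
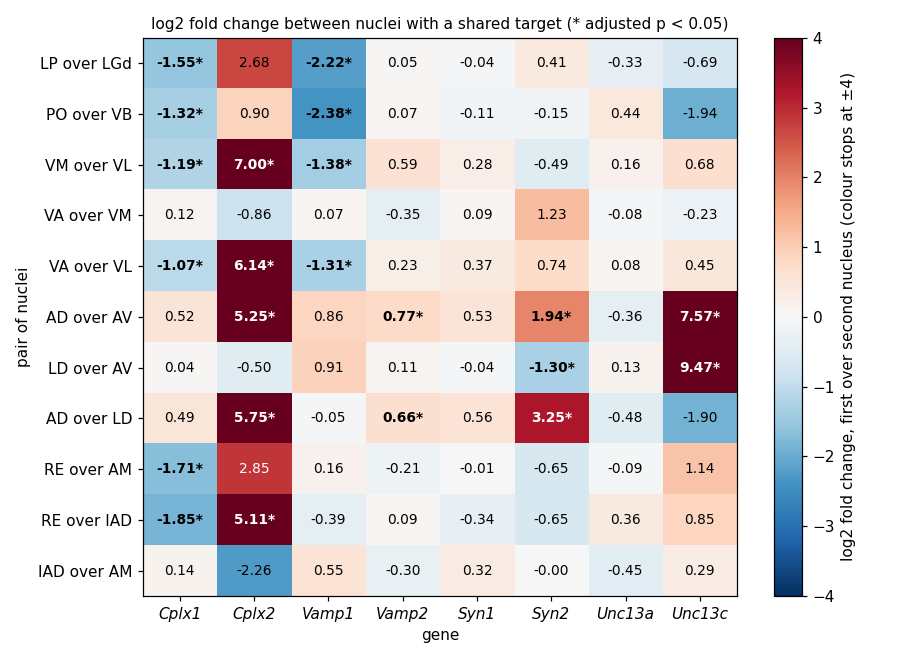
Log2 fold change of each gene (columns) in 11 pairs of nuclei with a shared cortical target (lines of the grid), first-named over second-named nucleus, with calls in bold with a star. Cplx1 and Vamp1 are lower in LP, PO, VM and VA over their partners LGd, VB, VL and VL, while AD over AV shows Cplx2, Vamp2, Syn2 and Unc13c higher.

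LP, a higher-order visual nucleus, was lower than LGd, the visual relay, in Cplx1 and Vamp1, 2 of 8 members where 3.62% of genes were called (2.23% higher, 1.39% lower). Cplx1 had 182 to 530 CPM in the 9 LP libraries (median 407), against 1137, 1145, 1075, 994 and 1259 CPM in LGd. Vamp1 had 50.0 to 145 CPM in LP (median 85.1), against 389, 406, 380.1, 443 and 458 CPM in LGd. Of the 5 LGd libraries 4 pooled cells of several animals, and no LP library did. The 1 LGd library that was not pooled had 1259 CPM of Cplx1 and 458 CPM of Vamp1. The ranges did not overlap in either gene, as in 2.37% of genes, and the log2 fold changes were -1.55 ± 0.25 for Cplx1 (edgeR adjusted p = 2.11e-06) and -2.22 ± 0.34 for Vamp1 (adjusted p = 8.06e-07). On the date that held 7 LP and 5 LGd libraries, log2 ratios of means (with 1 CPM added) were -1.59 and -2.41. Unc13c averaged 75.6 ± 19.4 CPM in LP and 122 ± 18.4 CPM in LGd, without an overlap, but was not called (log2 -0.69 ± 0.68, edgeR adjusted p = 0.752).

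PO was lower than VB, the somatosensory relay, in the same genes, where 2.65% of genes were called (1.6% higher, 1.05% lower). Cplx1 had 277 to 614 CPM in the 7 PO libraries (median 473), against 1268, 807, 1185 and 1271 CPM in VB. Vamp1 had 58.1 to 136 CPM in PO (median 94.9), against 492, 452, 542 and 448 CPM in VB. Neither gene overlapped, as in 3.27% of genes, with log2 fold changes of -1.32 ± 0.28 (edgeR adjusted p = 0.000928) and -2.38 ± 0.38 (adjusted p = 5.1e-06), and -1.46 and -2.72 on the date that held 3 PO and 4 VB libraries. Both calls held with each of the 11 libraries left out, including VB replicate 4, whose oligodendrocyte markers summed to 1823 CPM. Without the libraries that pooled animals, which leaves 1 VB library that is assumed to vary like the others, Cplx1 was not called (log2 -1.43, edgeR adjusted p = 0.205) and Vamp1 was. Unc13c averaged 36.2 ± 13.8 CPM in PO and 139 ± 24.6 CPM in VB, again without an overlap, and was not called (log2 -1.94 ± 0.76, edgeR adjusted p = 0.174); with these 2 groups fitted alone it was (adjusted p = 0.00116).

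Of the 3 motor nuclei, VL was set apart from both VM and VA. VM was lower than VL in Cplx1 and Vamp1 and higher in Cplx2, 3 of 8 members where 1.69% of genes were called (1.22% higher, 0.478% lower). Cplx1 had 362 to 779 CPM in VM (median 599.7) and 1149.6 to 1768 CPM in VL (median 1246), each with 6 libraries and with no overlap, as in 2.09% of genes. Its log2 fold change was -1.19 ± 0.27 (edgeR adjusted p = 0.00354), and on the shared date of 4 and 4 libraries -1.29. Vamp1 had 43.5 to 245 CPM in VM (median 153) and 291 to 623 CPM in VL (median 359), also apart, a log2 fold change of -1.38 ± 0.37 (edgeR adjusted p = 0.0226) and -1.75 on the shared date. This call was kept in 8 of 12 fits that left out 1 library; it was lost without VM replicate 1, 4 or 5 or VL replicate 6 (adjusted p up to 0.115).

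Cplx2 was almost missing from VL: its 6 libraries held 6, 5, 6, 2, 2 and 3 reads, which is 0.1002 to 0.407 CPM. The 6 VM libraries had 2.54 to 92.1 CPM (median 13.8), so no VM library came near, and the log2 fold change was 6.999 ± 1.18 (edgeR adjusted p = 1.65e-05), or 6.27 without VM replicate 5. Within VM the level moved with the library by over an order of magnitude. VA had 0.374 to 87.7 CPM (median 5.64), which overlapped with VL, and was also called higher than VL (log2 6.14 ± 1.12, edgeR adjusted p = 9.11e-05). The highest VA value came from replicate 6, the library of another genotype, and without it the log2 fold change was 4.82, still called (edgeR adjusted p = 0.0017). The other 7 VA libraries averaged 6.74 ± 7.78 CPM. By amplification date, VA averaged 4.05 CPM on that numbered 1, 2.98 CPM on 5 and 38.9 CPM on 4, which holds replicate 6. VM averaged 9.09 CPM on the date numbered 5 and 41.2 CPM on 4. Log2 ratios of means (with 1 CPM added) of VA over VL were 1.96 on the date numbered 1 and 5.06 on 4.

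VA was also lower than VL in Cplx1 (319 to 1132 CPM, median 621, in 8 VA libraries) and in Vamp1 (121 to 265 CPM, median 131), 3 of 8 members called in all where 2.21% of genes were (1.37% higher, 0.841% lower). Both ranges lay below those of VL, as in 1.13% of genes. Their log2 fold changes were -1.07 ± 0.25 (edgeR adjusted p = 0.0037) and -1.31 ± 0.34 (adjusted p = 0.0144). On the date numbered 1, with 3 VA and 2 VL libraries, they were -0.57 and -1.07, and on the date numbered 4, with 3 and 4, -1.16 and -1.53. Without VL replicate 6, and without all libraries of the date numbered 1, Vamp1 lost its call, at log2 -1.13 without the library (adjusted p = 0.0745) and log2 -1.37 without the date (adjusted p = 0.0857). Between VA and VM no member was called (0.127% of genes, 0.0484% higher and 0.0787% lower), with 2 of the 8 at an unadjusted p under 0.05 in edgeR, and DESeq2 called 1. That gene was Syn2, with 63.4 to 498 CPM in VA (median 130.2) and 43.9 to 115 CPM in VM (median 85.1), a log2 fold change of 1.23 ± 0.31 (edgeR adjusted p = 0.0668).

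The retrosplenial nuclei AD, AV and LD belong to the system of head direction and spatial memory. AD was higher than AV in Cplx2, Vamp2, Syn2 and Unc13c, 4 of 8 members where 5.69% of genes were called (2.79% higher, 2.9% lower). Cplx2 had 83.6, 159.6, 119.5 and 99.8 CPM in AD and 0.0693 to 8.99 CPM in 8 AV libraries (median 0.879), a log2 fold change of 5.25 ± 0.97 (edgeR adjusted p = 3.84e-05). Syn2 had 339, 355, 415 and 656 CPM in AD and 53.9 to 171 CPM in AV (median 112), a log2 fold change of 1.94 ± 0.32 (adjusted p = 3.41e-06). Vamp2 had 1909, 1617, 2121 and 2236 CPM in AD and 937 to 1367 CPM in AV (median 1191), a log2 fold change of 0.77 ± 0.19 (adjusted p = 0.00482). None of these ranges overlapped, and on the date that held 4 AD and 5 AV libraries the log2 ratios of means were 5.63, 2.06 and 0.82. Ranges were apart in 3.88% of genes. Cplx1 was 1325 ± 248 CPM in AD and 922 ± 235 CPM in AV and was not called (edgeR adjusted p = 0.292), nor was Vamp1, at 436 ± 110 CPM in AD and 241 ± 81.0 CPM in AV (log2 0.86, adjusted p = 0.184). AD and AV shared 3 animals. In limma voom with the animal as a random block both genes were called higher in AD. Cplx1 was at log2 0.54 (adjusted p = 0.0382) and Vamp1 at log2 0.91 (adjusted p = 0.0111). The correlation within animals was 0.034 in that fit. Whether the block or the change of method moved these calls was not tested.

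Unc13c was all but absent from AV. Of its 8 libraries 5 held no read, which allows 0.169 to 0.372 CPM at 3 counts, and the other 3 held 3, 1 and 3 reads. These 3 were the AV libraries from animals over 400 days old. They were also amplified on another date than the 5, so age and date cannot be told apart there. AD held 1.522, 22.7, 17.6 and 15.9 CPM (log2 7.57 ± 0.97 over AV, edgeR adjusted p = 8.67e-10) and LD 46.9, 54.2, 32.2, 51.2 and 85.5 CPM (log2 9.47 ± 0.99, adjusted p = 5.17e-13). Both fold changes rest on 7 reads in AV, so their size depends on how low counts are handled; without AV replicate 8 that of LD was log2 10.06. On the date shared by AD and 5 AV libraries, all 5 were at 0.

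LD differed from AV in 2 of 8 members (5.5% of genes called, 3.58% higher and 1.92% lower), Unc13c and Syn2. Syn2 had 52.9, 52.8, 9.58, 48.6 and 69.1 CPM in LD and 53.9 to 171 CPM in AV, with an overlap, and was lower in LD (log2 -1.30 ± 0.33, edgeR adjusted p = 0.00653). Without LD replicate 3 it missed the threshold (adjusted p = 0.0548), as it did with the amplification date as a term (log2 -1.15, adjusted p = 0.565). On the date that held 2 LD and 3 AV libraries, all from animals over 400 days old, the log2 ratios of means were -1.14 for Syn2 and 5.88 for Unc13c. In LD, Cplx2 had 1.65, 0.129, 0.0855, 8.65 and 0 CPM and Vamp2 1379, 1599, 966, 1222 and 1090.1 CPM, all below the AD libraries. Ranges of AD and LD were apart in 6.07% of genes. AD was higher than LD in Cplx2 (log2 5.75 ± 1.21, edgeR adjusted p = 0.00036), Vamp2 (0.66 ± 0.22, adjusted p = 0.0473) and Syn2 (3.25 ± 0.39, adjusted p = 5.87e-11), where 6.73% of genes were called (2.57% higher, 4.16% lower). AD and LD shared no date, and with the date as a term the log2 fold changes were larger, at 6.76 for Cplx2 (edgeR adjusted p = 0.0549) and 0.89 for Vamp2 (adjusted p = 0.0611), and neither was called. Without LD replicate 4, the highest of its group, the Cplx2 fold change was log2 7.83 (edgeR adjusted p = 2.99e-05). The Vamp2 call was kept in 2 of 9 fits that left out 1 library (adjusted p up to 0.137), the losses coming without AD replicate 1, 3 or 4 or LD replicate 1, 3, 4 or 5.

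In the cingulate system RE was lower in Cplx1 than both its partners. RE had 42.1 to 116 CPM in 8 libraries (median 99.7). AM had 267.5, 341, 338 and 308 CPM and IAD 302, 418 and 316 CPM, with no overlap with RE, as in 3.93% and 5.95% of genes. The log2 fold change was -1.71 ± 0.27 over AM (edgeR adjusted p = 3.26e-06), where 1 of 8 members and 1.84% of genes were called (0.611% higher, 1.23% lower), and -1.82 on the date with 4 RE and 4 AM libraries. Over IAD it was -1.85 ± 0.29 (adjusted p = 2.37e-06), where 2 of 8 members and 1.33% of genes were called (0.266% higher, 1.06% lower). The lowest RE library, replicate 3, also had the highest Unc13c of its group, at 106 CPM against 24.9 to 53.3 CPM in the other 7. Without it RE averaged 104 ± 9.34 CPM of Cplx1.

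Vamp1 did not follow Cplx1 there: it averaged 69.7 ± 20.3 CPM in RE (n = 8), 62.5 ± 16.6 CPM in AM (n = 4) and 91.6 ± 14.1 CPM in IAD (n = 3), and was called in neither pair (edgeR adjusted p = 1 in both). Cplx2 had 19.6 to 62.4 CPM in RE (median 38.3), against 6.79, 9.59, 1.31 and 3.63 CPM in AM and 2.59, 0.465 and 0.255 CPM in IAD. It was called over IAD (log2 5.11 ± 1.44, edgeR adjusted p = 0.0436) and not over AM (2.85 ± 1.10, adjusted p = 0.247). RE and AM libraries did not overlap in Cplx2, as in 3.93% of genes. DESeq2 (adjusted p = 0.0463) and edgeR on RE and AM alone (adjusted p = 0.00161) called it over AM at log2 2.86 and 2.85. The IAD call was kept in 4 of 11 fits that left out 1 library, and was lost without RE replicate 1, 3, 7 or 8 or any 1 of the 3 IAD libraries (adjusted p up to 0.36), with log2 6.71 without IAD replicate 1. Between IAD and AM no member and no gene was called (0%) in edgeR, where none of the 8 had an unadjusted p under 0.05. Between the AAV and DiI libraries of CM no member was called either (0.00605% of genes). Syn1 had the smallest adjusted p there (0.739), with 942 ± 178 CPM in CM by AAV (n = 4) and 1582 ± 77.8 CPM in CM by DiI (n = 3), and an unadjusted p of 0.00892.

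Over the nuclei Cplx1 and Vamp1 tracked each other. The correlation of nucleus means of log2 CPM was r = 0.95 over 22 nuclei, 0.95 over the 7 striatum-labelled and 0.90 over the 15 cortex-labelled nuclei. Nucleus and date cannot be told apart in the value over the striatum-labelled nuclei. PVT, IMD and SPA, the lowest of these in Cplx1 and Vamp1, were amplified on other dates than the rest. Syn2 ran against both, with r = -0.74 against Cplx1 and -0.75 against Vamp1 over 22 nuclei, but within classes only -0.05 and -0.16 over the striatum-labelled and -0.38 and -0.41 over the cortex-labelled nuclei. Within families the values differed by class. Cplx1 and Cplx2 had r = -0.40 over 22 nuclei, 0.66 over the striatum-labelled and -0.38 over the cortex-labelled nuclei. Vamp1 and Vamp2 had r = 0.28 over 22 nuclei, 0.82 over the striatum-labelled nuclei, which include the PVT and IMD libraries of the low Vamp2 date, and -0.30 over the cortex-labelled nuclei. Syn1 and Syn2 had r = -0.69 over 22 nuclei, -0.76 over the striatum-labelled and -0.09 over the cortex-labelled nuclei. Unc13a and Unc13c had r = 0.48 over 22 nuclei, 0.67 over the striatum-labelled and 0.28 over the cortex-labelled nuclei. These are descriptions over nuclei that share animals, dates and a common scaling.

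**Figure D5:**
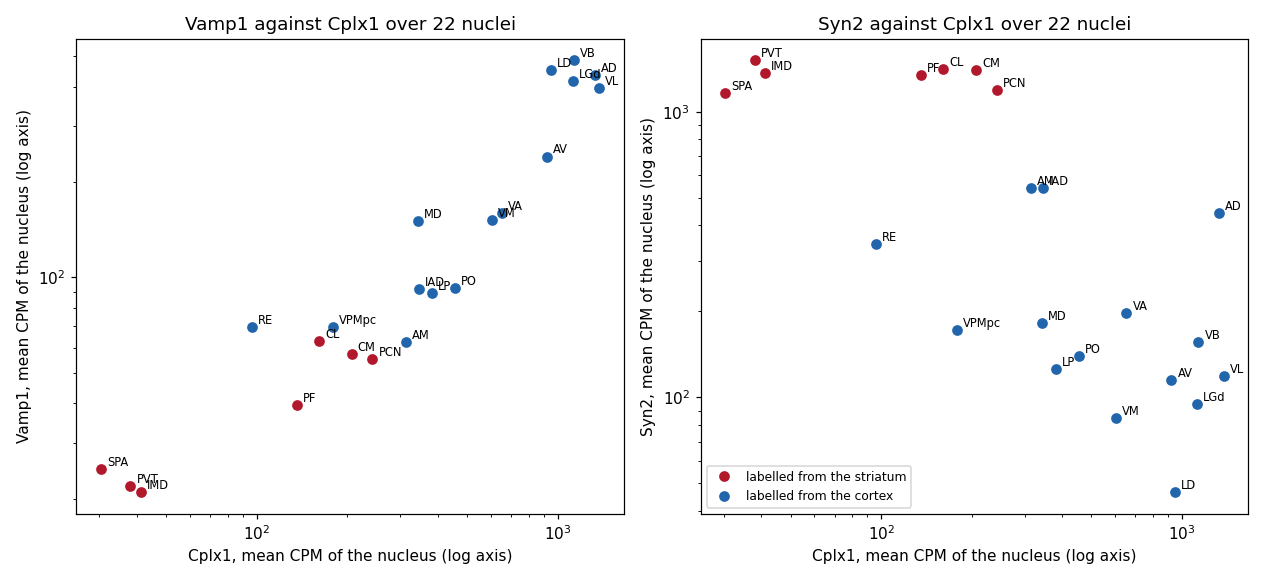
Mean CPM of Vamp1 (left) and Syn2 (right) against Cplx1, both axes logarithmic, 1 point per nucleus, coloured by class. Vamp1 climbs with Cplx1 within both classes, whereas the 7 striatum-labelled nuclei share a high Syn2 at 30.4 to 242 CPM of Cplx1.

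Among 8521 genes whose mean reached 10 CPM, those most like each member over the 22 nuclei were read off by r. Cplx1 was most like Scn1a (0.96), a sodium channel of fast-spiking neurons, Slc24a2 (0.95), a sodium-calcium exchanger, and Vamp1. Vamp1 was most like Ahcyl1 (0.97), Cplx1 and Kcna1 (0.94), an axonal potassium channel. Syn2 was most like Thsd7b (0.95), Smoc1 (0.94) and Adgrg2 (0.93), and Unc13c most like Rgs4 (0.89), Tspan2 (0.89) and Clmp (0.89). For Syn1 the highest were Clip3 (0.93), Rab11b (0.90) and Tmem60 (0.89), and for Vamp2 Ube2n (0.84) and Rit2 (0.78) were among the highest. Lower values were the highest for Unc13a (Nlgn2, 0.78; Rbm43, 0.76; Chrm3, 0.69) and for Cplx2 (Nanos1, Adcy7 and Acvr2b, 0.73, 0.73 and 0.72).

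The balance within each family was read per kilobase of exon. Cplx1 made up 67.1 to 98.2% of the 2 complexins in striatum-labelled libraries (median 89.99%) and 60.3 to 100% in cortex-labelled libraries (median 99.5%), and its lowest group mean was in CM by DiI, at 70.8 ± 3.94% (n = 3). Vamp1 made up 0.309 to 2.802% of the 2 VAMPs in striatum-labelled libraries (median 1.22%) and 0.227 to 16.2% in cortex-labelled libraries (median 3.67%), with the highest group mean in VB at 13.1 ± 1.08% (n = 4). Vamp2 was thus the larger of the pair in every library.

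Syn2 made up 19.7 to 52.7% of the 2 synapsins in striatum-labelled libraries (median 38.9%) and 0.207 to 25.1% in cortex-labelled libraries (median 3.79%). Its share was 42.9 ± 6.37% in PVT (n = 3) and 1.23 ± 0.678% in LD (n = 5). Unc13c made up 0 to 15.8% of the 2 Munc13 genes in striatum-labelled libraries (median 2.55%) and 0 to 57.9% in cortex-labelled libraries (median 20.1%). In VB it reached 52.8 ± 6.41% (n = 4) and in LGd 40.7 ± 6.48% (n = 5).

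Other genes of the release machinery, from lists described only by their counts, were called in both directions between the classes, where 8.58% of all genes were higher and 9.8% lower. With lists of 7 to 15 genes, 1 gene more or fewer moves such a share by several percent. Of 15 SNARE proteins and partners 3 were higher and 2 lower in striatum-labelled nuclei, with a median log2 difference of 0.17 beside -0.08 for all genes. Stx1a, a syntaxin of the plasma membrane, was 85.4 ± 17.2 CPM in striatum-labelled nuclei and 23.5 ± 17.7 CPM in cortex-labelled nuclei (log2 1.86, edgeR adjusted p = 0.011). Snap25, its partner, was 8103 ± 1387 CPM in striatum-labelled nuclei and 12889 ± 5932 CPM in cortex-labelled nuclei (log2 -0.67, adjusted p = 0.0391). Of 13 active zone genes 2 were higher and 1 lower, namely Rimbp2 (log2 0.99), Ppfia3 (0.55) and Rims2 (-0.47).

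Of 11 vesicle membrane genes 3 were higher and 3 lower. Synpr, synaptoporin, stood at 29.5 ± 22.3 CPM in striatum-labelled nuclei and 1.10 ± 2.57 CPM in cortex-labelled nuclei, and Syt1, the calcium sensor of fast release, at 1569.9 ± 471 CPM in striatum-labelled nuclei and 2664 ± 513 CPM in cortex-labelled nuclei (edgeR adjusted p = 0.00836 and 0.00143). Of 7 measured priming and Rab3 genes, the calcium-binding Doc2a and Doc2b were higher (log2 3.60 and 2.95, adjusted p = 0.0179 and 0.0313) and Cadps lower (-0.69, adjusted p = 0.00374). The relatives Syn3 and Unc13b were not called between the classes, and Cplx3, Cplx4 and Unc13d were not analysed here.

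Within targets the lists were called in both directions too. In LP over LGd (2.23% of all genes higher, 1.39% lower) and in PO over VB (1.6% higher, 1.05% lower) 2 of 15 SNARE genes were higher and 1 lower, the same genes in both: Stx1a (log2 4.79 and 3.62), Stxbp5l (2.37 and 1.995) and Snap25 (-0.60 and -0.93). Unc13b, the relative of Unc13a, was higher in PO than in VB at 184 ± 43.2 CPM in PO (n = 7) and 32.8 ± 22.9 CPM in VB (n = 4), a log2 fold change of 2.49 (edgeR adjusted p = 1.9e-05). It was lower in AD than in LD, at 4.48 ± 5.01 CPM in AD (n = 4) and 166 ± 34.99 CPM in LD (n = 5), a log2 fold change of -5.19 (adjusted p = 6.52e-15). Syt2, a fast calcium sensor, was lower in VM than in VL, at 0.384 ± 0.187 CPM in VM (n = 6) and 92.2 ± 55.9 CPM in VL (n = 6) (log2 -7.87, adjusted p = 0.0067). In AD over LD 7 of the 15 SNARE genes were higher and none lower, beside 2.57% of all genes higher and 4.16% lower, with a median log2 fold change of 1.05 beside 0 for all genes.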

How the data were processed

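The deposited table holds raw counts, 1 whole number for each gene and library; a second one by the authors holds labels of each library (tracer, target, date, animal, sex, age, cells). Trimming, alignment and counting used cutadapt 1.16, STAR 2.5.3a and featureCounts 1.52 on build mm10, per the submitters' processing notes, whose settings are not given in the sources used here. Because the labelled kit is unstranded, antisense neighbours cannot be told apart: besides Timp4 in Syn2, Colgalt1 shares 495 exon bases with Unc13a and Araf 9 with Syn1, and neither was called between the classes. cDNA was amplified without molecular identifiers, so limits from counts cover counting error only.

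Tests ran in edgeR 4.0.16 (R 4.3.3): filterByExpr (minimum count 10, minimum total 15), TMM factors, 1 fit of 24 groups, quasi-likelihood tests, Benjamini-Hochberg over all tested genes at 0.05, two-sided. SE is the size of the log2 fold change divided by the square root of F. CM was taken from AAV and AM from DiI libraries where 22 nuclei were compared. For the classes, counts were summed per nucleus and fitted anew. Exon lengths and overlaps come from GENCODE M21, promoters from RefSeq. Likeness is Pearson's r of nucleus means of log2 CPM (prior count 2). The same-numbered libraries of RE and AM came from the same animals (4 of 4), but deviated together in none of the 4 (r -0.12 to 0.06); in the other pairs numbers matched animals only in part, and no comparison had r above 0.1 throughout.

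Alternatives were RLE factors, DESeq2 1.42.0, no filter, the replicate number as a block, date or sex as a term, limma 3.58.1 (voom) with the animal as a random block, the compared groups alone, and each library or nucleus left out. Added after the data were seen were leaving out animals over 400 days, the other genotype, pooled animals, and the date of PVT and IMD. The code was tested on simulated counts. Results on some genes outside the 8 are not reported here. The members and gene lists were chosen with earlier results of these data known; the lists name at most 3 genes per direction by size of the called change. Where a replicate's origin in separate animals is not given or an animal gave several libraries, p-values measure only the spread between libraries. Figures used matplotlib 3.10.9 under Python 3.11.15.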

Additional observations from a re-analysis of the deposited data

Results flagged for a closer look

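Over the 8 genes and the groups of 4 or more libraries, 160 sets of values of 1 gene in 1 group were examined. In 15 a library lay far from the others of its group. About 8 would be flagged by chance if values were normally distributed. CPM values need not be, and the 8 genes share libraries, so 15 is not read as an excess. In the 15 flagged sets, 2 libraries stood apart in 2 genes each. RE replicate 3 had the lowest Cplx1 of its group (42.14 CPM) and the highest Unc13c (105.7 CPM). VA replicate 6, of another genotype, had the highest Cplx2 (87.70 CPM) and Unc13a (561.6 CPM) of its group.

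For Cplx1, MD replicate 4 was also high (543.7 CPM). For Cplx2, MD replicate 2 (25.96 CPM) and LD replicate 4 (8.650 CPM) were high. In IMD, replicate 3 was low in Vamp2 (492.9 CPM) and replicate 2 high in Syn1 (941.9 CPM). Syn1 was further high in LGd replicate 1 (1923 CPM) and VB replicate 2 (2561 CPM). Syn2 was high in AM replicate 1 (683.8 CPM), VPMpc replicate 4 (380.8 CPM) and PO replicate 4 (314.2 CPM), and Unc13a in LP replicate 3 (482.8 CPM). The AM value is the highest Syn2 of any cortex-labelled library.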

How the results depend on the processing

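Of called results of members, 404 kept their call and direction under the settings that changed a method or left out a set of libraries, 18 lost it and 0 reversed; with 1 library or nucleus left out 1803 kept it, 22 lost it and 0 reversed. The class comparison called 8 members as a contrast of groups in the fit of all libraries, against 5 on sums per nucleus. That contrast measures the spread between libraries and not between nuclei. Its added calls of Cplx2, Vamp2 and Unc13a are therefore not read as differences between the classes. The share of all genes called by that contrast is not reported here. RE against AM gave 2 called members in DESeq2, in voom and with the compared groups alone, VA against VM 1 in DESeq2, and RE against IAD 1 with the replicate block, where Cplx2 had an adjusted p of 0.0594. LD against AV gave 1 with the date as a term and 1 alone, and AD against LD 1 with the date. The 5 striatum-labelled nuclei that remain without the date of PVT and IMD gave 1. The block also moved Unc13a over the 22 nuclei to an adjusted p of 0.0963 and changed no other call of the separate comparisons. The cause was not tested. With 1 library left out, members called ranged from 7 to 8 over all nuclei, 3 to 4 over striatum-labelled and 7 to 8 over cortex-labelled nuclei. They ranged from 2 to 4 in VM against VL, 0 to 1 in VA against VM (Syn2, without VA replicate 5 or 7), 2 to 3 in VA against VL and AD against LD, and 1 to 2 in LD against AV and RE against IAD. The date term could not be fitted for the tests over nuclei, for RE against IAD, for IAD against AM or for CM. Depth limits Cplx2 in VL and Unc13c in AV, with 24 and 7 reads in all.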
